A study of Mus musculus with 2 samples.

Results

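The genes described here encode the main parts of cGMP signaling in the mouse kidney around birth. They are the NO synthases Nos1 and Nos3, the natriuretic peptide receptors Npr1 and Npr3, the cGMP-dependent kinase Prkg1 and the phosphodiesterases Pde5a and Pde3a. The members were chosen by gene symbol and make up 7 of the 32285 genes listed in both count matrices. They are set beside the 4 subunits of soluble guanylate cyclase (Gucy1a1, Gucy1a2, Gucy1b1 and Gucy1b2). Nuclei of whole kidneys were profiled by single-nucleus RNA sequencing in a single library per age, E18.5 and P3, each pooled from males and females. The E18.5 kidneys carried floxed alleles without a Cre driver (Mycf/f;Mycnf/f) on a mixed background, and the P3 kidneys are labelled wild type and C57BL/6J. The methods of the study give a mixed background for both ages. The Cell Ranger release also differed, so that these features and the age of the kidneys cannot be told apart.

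NO made by a NO synthase diffuses into neighboring cells and activates soluble guanylate cyclase, which makes cGMP. Natriuretic peptides reach the same second messenger through Npr1, a receptor with its own cyclase domain, while Npr3 binds the peptides and clears them. cGMP activates the kinase encoded by Prkg1, which relaxes vascular smooth muscle, and phosphodiesterases end the signal.

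The E18.5 library kept 21270 nuclei with a median of 3132.5 UMIs and the P3 library 11765 nuclei with a median of 4534. Both libraries held many called doublets (16.6% and 17.4% of nuclei), and 69 barcodes occurred in both lists. Nuclei were clustered without the cGMP genes and named from marker genes, so that each class below is to be read as nuclei resembling that type. Of 25 clusters at E18.5 and 33 at P3, 5 and 7 were mostly called doublets and stayed unnamed. In all, 30.2% and 41.1% of nuclei were left without a class, and no cluster passed the naming rules as nephron progenitors at P3. A level is the sum of a gene's UMIs over a group of nuclei per 1000000 UMIs of that group (CPM). Levels are given for E18.5 first and P3 second. Brackets hold exact 95% intervals, which cover counting error only, since neither age has a second library and no difference could be tested.

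**Figure D1:**
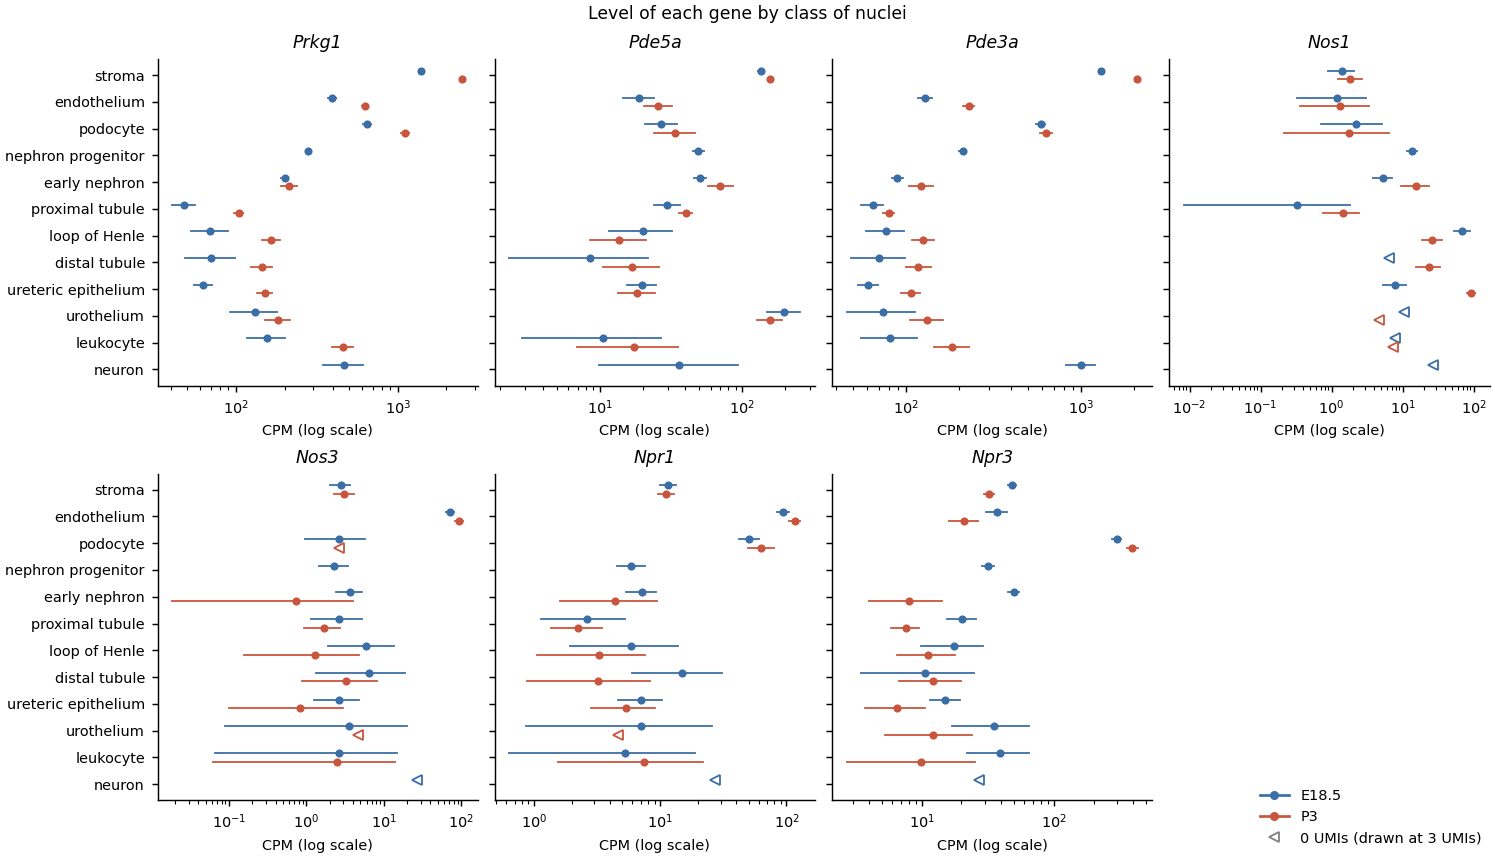
Level of each member (CPM, log axis) in each nuclei class at E18.5 and P3, with 95% counting intervals as bars. Prkg1 and Pde3a were highest in stroma-like nuclei, Nos3 and Npr1 in endothelium-like nuclei and Npr3 in podocyte-like nuclei at both ages, whereas the leading class of Nos1 and of Pde5a differed between the ages.

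Nos3, the endothelial NO synthase, was found in endothelium-like nuclei at 72.2 CPM [63.3 to 81.9] and 94.4 CPM [83.8 to 106]. All other classes with a Nos3 UMI lay at or below 6.40 CPM. Endothelium-like nuclei exceeded all other nuclei by 13.5-fold [11.4 to 15.9] at E18.5 and by 22.6-fold [19.1 to 26.7] at P3. The contrast was sharper still when called doublets were removed, at 22.0-fold and 53.3-fold. Several clusters of mostly called doublets carried endothelial leading genes together with 35.1 to 59 CPM of Nos3, and their part in this move was not tested. After each nucleus had been thinned to 1000 UMIs, 5.99% and 7.29% of endothelium-like nuclei held a Nos3 UMI, against 0.195% and 0.251% of stroma-like nuclei. The median depth of these classes was 2821 and 3442.5 UMIs in the endothelium and 2972 and 4116 in the stroma. The gene is short (chr5:24364810-24384474, plus strand, GRCm38) and 21.0% of it is exonic.

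Nos1, the neuronal NO synthase, lies further along the same chromosome (chr5:117781032-117958840, plus strand). Its transcripts were sparse, with 513 UMIs in the E18.5 library and 1196 in the P3 library. At E18.5 the loop of Henle-like nuclei stood out with 69.5 CPM [52.9 to 89.6] from 59 UMIs, 11.7 times [8.76 to 15.4] the level of all other nuclei. These UMIs lay in 21 of 234 nuclei, and 4 nuclei held 24 of them. Nephron progenitor-like nuclei followed at 13.6 CPM and ureteric epithelium-like nuclei at 7.81 CPM. At P3 the order was different. Ureteric epithelium-like nuclei led with 92.0 CPM [80.4 to 105], 6.41 times [5.52 to 7.41] all other nuclei, while the loop of Henle-like nuclei held 26.1 CPM [18.7 to 35.6]. Distal tubule-like nuclei, with 0 UMIs at E18.5, held 23.4 CPM at P3. This was 3.66-fold above a floor of 3 UMIs in the E18.5 class. The counting interval of the ratio to 0 UMIs had a lower limit of 2.79. The class was not alike at the ages, since it was a single Slc12a3-led cluster at E18.5. At P3, 23 of its 29 Nos1 UMIs lay in an added cluster led by Plppr1 and Scnn1b. The P3 levels of loop of Henle-like and distal tubule-like nuclei did not differ beyond counting error (ratio 1.12 [0.675 to 1.87]). Levels were low in proximal tubule-like nuclei, at 0.330 and 1.44 CPM, and in stroma-like nuclei, at 1.38 and 1.83 CPM.

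The P3 lead of the ureteric epithelium rested on a single cluster led by Slc14a2, the urea transporter of the inner medullary collecting duct. Its 147 nuclei held 207 of the 225 Nos1 UMIs of the class, a level of 206.9 CPM, and 53.1% of them had a Nos1 UMI. No single nucleus accounted for this, since the highest held 17 UMIs, but 10 nuclei with 5 or more UMIs held 88 of the 207. The other ureteric epithelium-like nuclei of P3 lay 16.6-fold [10.3 to 28.6] lower, at 12.5 CPM. The cluster with the same leading gene at E18.5 had 526 nuclei but only 18 Nos1 UMIs (10.1 CPM), 1.74 times [0.792 to 3.96] the other ureteric nuclei of that age. The Slc14a2-led clusters were matched by that gene, and whether they hold the same kinds of nuclei was not tested. Both had Mgat4c and Kcnh7 among their leading genes, and the E18.5 cluster alone had Scnn1b. Between the ages the Slc14a2-led clusters differed 20.4-fold [12.6 to 35.2]. For Prkg1 the same ratio was 1.84 [1.41 to 2.40], for Pde3a 1.64 and for Pde5a 1.09 [0.548 to 2.12].

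At E18.5, 178 of the 513 Nos1 UMIs lay in the largest cluster of mostly called doublets. Most of the 1196 Nos1 UMIs of P3 fell in nuclei without a class. A cluster of 880 nuclei led by Eya1, a nephron progenitor gene, held 175 UMIs (36.3 CPM) and a cluster led by Ptprt, Nrcam and Sim2 held 50 UMIs (30.6 CPM). The 2 largest clusters of mostly called doublets held 331 and 239 UMIs, at 32.3 and 19.9 CPM. Within the distal tubule class, the cluster led by Plppr1 and Scnn1b had 39.6 CPM and the cluster led by Slc12a3 had 9.12 CPM from 6 UMIs.

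**Figure D2:**
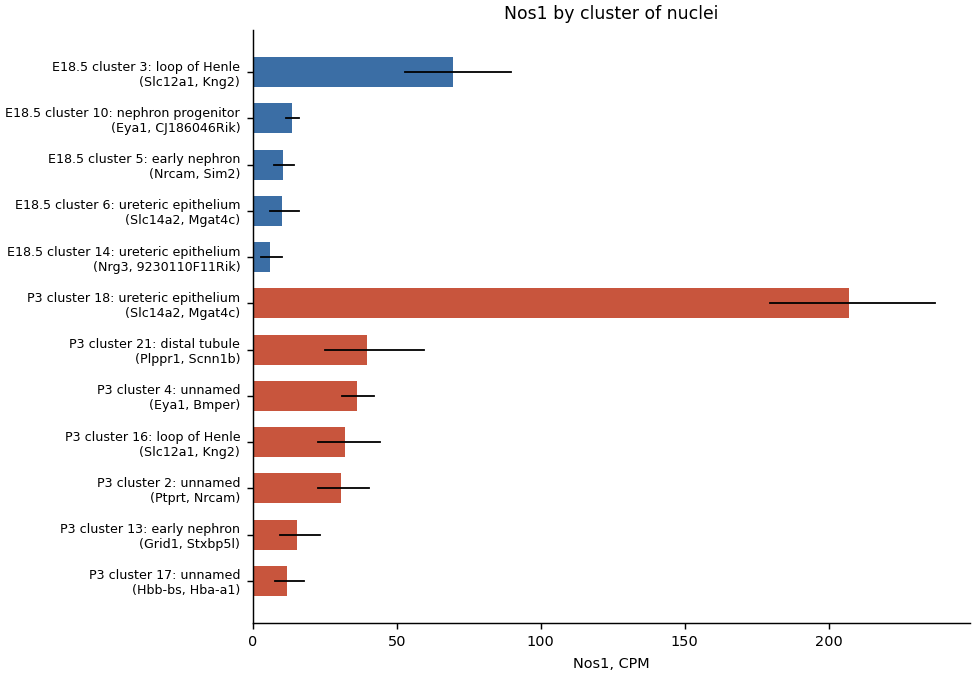
Level of Nos1 (CPM) in the clusters with 20 or more Nos1 UMIs that were not mostly called doublets, and in the ureteric epithelium-like clusters of E18.5, with 95% counting intervals as lines. The Slc14a2-led cluster of P3 reached 206.9 CPM, and the loop of Henle-like cluster of E18.5 reached 69.5 CPM.

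In the loop of Henle-like nuclei, Nos1 occurred together with Pappa2, a macula densa gene. After thinning, 9 of the 14 nuclei with Nos1 at E18.5 also held Pappa2, where 1.68 would be found if the genes were spread independently over the class, a ratio of 5.35 [2.45 to 10.2]. At P3 it was 3 of 7 nuclei, a ratio of 5.74 [1.18 to 16.8]. In unthinned counts, Pappa2 stood at 1739 CPM in the Nos1-positive and 201 CPM in the other loop of Henle-like nuclei at E18.5. In the larger of the loop of Henle-like clusters of P3 the corresponding levels were 1474 and 71.9 CPM. In the distal tubule-like cluster led by Plppr1 and Scnn1b they were 373 and 20.3 CPM. The contrast was not found in every cluster with Pappa2. In the Nrcam-led early nephron-like cluster of E18.5 the levels were close, at 167 and 134 CPM. They were 324 and 167 CPM in the unnamed Ptprt-led cluster of P3, and 52.5 and 2.31 CPM in its Grid1-led early nephron-like cluster. In the Slc14a2-led cluster Pappa2 was low in both, at 22.5 and 7.07 CPM, and among thinned ureteric epithelium-like nuclei of P3 only 1 of 33 with Nos1 held Pappa2, a ratio with a wide interval (0.920 [0.0233 to 5.13], or 1.68 [0.0424 to 9.34] counted within sub-clusters). Avpr1a and Oxtr, which also mark the macula densa, were detected in at most 2 thinned nuclei of either class and could not be compared.

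Npr1 encodes the receptor guanylyl cyclase for atrial and brain natriuretic peptides (chr3:90450591-90465866, minus strand, 31.3% exonic). Endothelium-like nuclei held 93.7 CPM [83.6 to 105] and 116 CPM [104 to 129]. Podocyte-like nuclei came next with 50.8 CPM [42.0 to 60.9] and 63.3 CPM [49.4 to 79.8], and the endothelium exceeded them 1.84-fold at both ages ([1.49 to 2.30] and [1.42 to 2.40]). Against all other nuclei the endothelium was 7.28-fold [6.38 to 8.28] and 10.4-fold [9.15 to 11.8] higher. The stroma held 11.6 and 11.1 CPM and proximal tubule-like nuclei 2.64 and 2.22 CPM. Levels were thus highest in the endothelium and podocytes, although the larger part of the 1266 and 1100 Npr1 UMIs of the libraries lay outside these classes (313 and 352 UMIs in the endothelium, 116 and 71 in podocytes). Thinned shares followed the levels, with 10.2% and 11.8% of endothelium-like, 5.00% and 5.68% of podocyte-like and 0.389% and 0.463% of proximal tubule-like nuclei holding a UMI. The median depth of the proximal tubule-like nuclei was 3803.5 and 6130.5 UMIs and that of the podocyte-like nuclei 2950.0 and 4478.

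Npr3, the natriuretic peptide clearance receptor (chr15:11839896-11907287, minus strand), had its highest level in podocyte-like nuclei at 299.5 CPM [278 to 323] and 394 CPM [358 to 432]. These values were 6.73-fold [6.19 to 7.30] and 16.8-fold [15.1 to 18.7] above all other nuclei. The podocyte-like nuclei of P3 came from 2 clusters, with 461 CPM in the 140 nuclei led by Magi2 and 306 CPM in the 89 nuclei led by Ptpro, of which 18.0% were called doublets. At E18.5 the early nephron-like nuclei (49.8 CPM), the stroma (48.4 CPM), leukocyte-like nuclei (39.4 CPM) and the endothelium (37.1 CPM) lay in this order. Each step to the next of these classes was within counting error, and classes further apart in the order were not compared. At P3 the early nephron-like nuclei were at 7.99 CPM, the stroma at 32.4 CPM and the endothelium at 20.8 CPM. The early nephron class held a Nrcam-led and a Grid1-led cluster at E18.5 but the Grid1-led cluster alone at P3. The P3 cluster with Nrcam and Sim2 among its leading genes stayed unnamed. Both receptors were thus present in podocyte-like nuclei at both ages. Of the thinned podocyte-like nuclei with Npr1, 12 of 36 and 5 of 13 also held Npr3, which did not differ from independence beyond counting error (ratios 1.43 [0.738 to 2.50] and 1.30 [0.421 to 3.02]).

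Prkg1, the type I cGMP-dependent kinase, is among the longest genes of the mouse genome (chr19:30564489-31765033, minus strand, 1200545 bases) and 0.905% of it is exonic. RefSeq gives it a pair of transcription starts 100663 bases apart. The windows of 250 bases upstream of each start are shown because they are the known starts of the member with the widest difference between zones, in the 5′ to 3′ direction of the gene and with the GC box (GGGCGG or its reverse complement CCGCCC) in capitals.

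Prkg1 upstream of the distal start, chr19:31765034-31765283, minus strand: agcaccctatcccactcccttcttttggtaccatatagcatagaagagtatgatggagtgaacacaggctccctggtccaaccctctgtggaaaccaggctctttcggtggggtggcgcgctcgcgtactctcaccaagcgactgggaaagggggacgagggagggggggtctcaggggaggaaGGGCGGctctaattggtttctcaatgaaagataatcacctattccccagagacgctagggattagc

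Prkg1 upstream of the start inside the gene, chr19:31664371-31664620, minus strand: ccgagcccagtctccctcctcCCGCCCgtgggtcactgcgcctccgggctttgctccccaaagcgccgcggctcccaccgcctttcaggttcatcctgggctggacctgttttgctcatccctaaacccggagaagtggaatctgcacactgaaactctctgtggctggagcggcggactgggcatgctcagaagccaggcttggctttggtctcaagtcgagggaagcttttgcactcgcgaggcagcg

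Each window held 1 GC box, and neither overlapped an annotated exon. Their GC content was 55.2% and 62.8%, against a median of 52.4% over the 32851 windows of the same length in RefSeq (GRCm38). A GC box was found in 32.7% of all windows and the TATAAA motif in 12.4%, searched on both strands. Neither Prkg1 window held TATAAA or a CArG box, the serum response element core, which 1.47% of windows held. Counts of a nucleus are summed over a gene, and the use of each start was therefore not measured.

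Prkg1 was highest in stroma-like nuclei, at 1400 CPM [1382 to 1418] from 23260 UMIs at E18.5 and 2513 CPM [2488 to 2538] from 38374 UMIs at P3. The order below was the same at both ages for the next classes present in both, with podocyte-like nuclei at 646 and 1117 CPM and endothelium-like nuclei at 394 and 627 CPM. At E18.5 a small cluster of 19 neuron-like nuclei, at 463 CPM [345 to 609], could not be told from the endothelium by its count. Proximal tubule-like nuclei were lowest at 47.9 and 105 CPM. Stroma exceeded all other nuclei 3.59-fold [3.52 to 3.65] and 4.16-fold [4.09 to 4.22]. Without called doublets these ratios were 5.33 and 7.07. Among thinned nuclei, 50.2% and 70.6% of the stroma held a Prkg1 UMI, against 37.6% and 56.8% of podocyte-like, 25.6% and 38.4% of endothelium-like and 5.31% and 11.4% of proximal tubule-like nuclei. The share in the endothelium and podocytes was far above that of the proximal tubule in the same library at lower median depth.

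Of the stroma-like nuclei, 36.6% at E18.5 and 46.1% at P3 were given no zone, and no sub-cluster was named medullary stroma. Those without a zone included 1127 nuclei led by Zfp536 at E18.5. They held 859 CPM of Prkg1 at E18.5 and 2072.5 CPM at P3. Among the named zones, Prkg1 separated the zones more widely than any other member at E18.5. Nephrogenic zone-like stroma held 227 CPM [211 to 243], papillary stroma-like nuclei 2025 CPM [1964 to 2087], cortical stroma-like nuclei 2292 CPM [2247 to 2338] and mural-like nuclei 4929 CPM [4762 to 5101]. Cortical stroma exceeded the nephrogenic zone 10.1-fold [9.40 to 10.9] and the mural nuclei exceeded it 21.8-fold [20.1 to 23.5]. At P3 the order was the same but the span was narrower, with 1402, 3463, 3869 and 6317 CPM, so that the corresponding ratios were 2.76 [2.66 to 2.87] and 4.51 [4.23 to 4.79]. Thinned shares ran in nearly the same order, from 17.0% in the nephrogenic zone to 92.5% in mural-like nuclei at E18.5 and from 46.5% to 94.7% at P3.

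**Figure D3:**
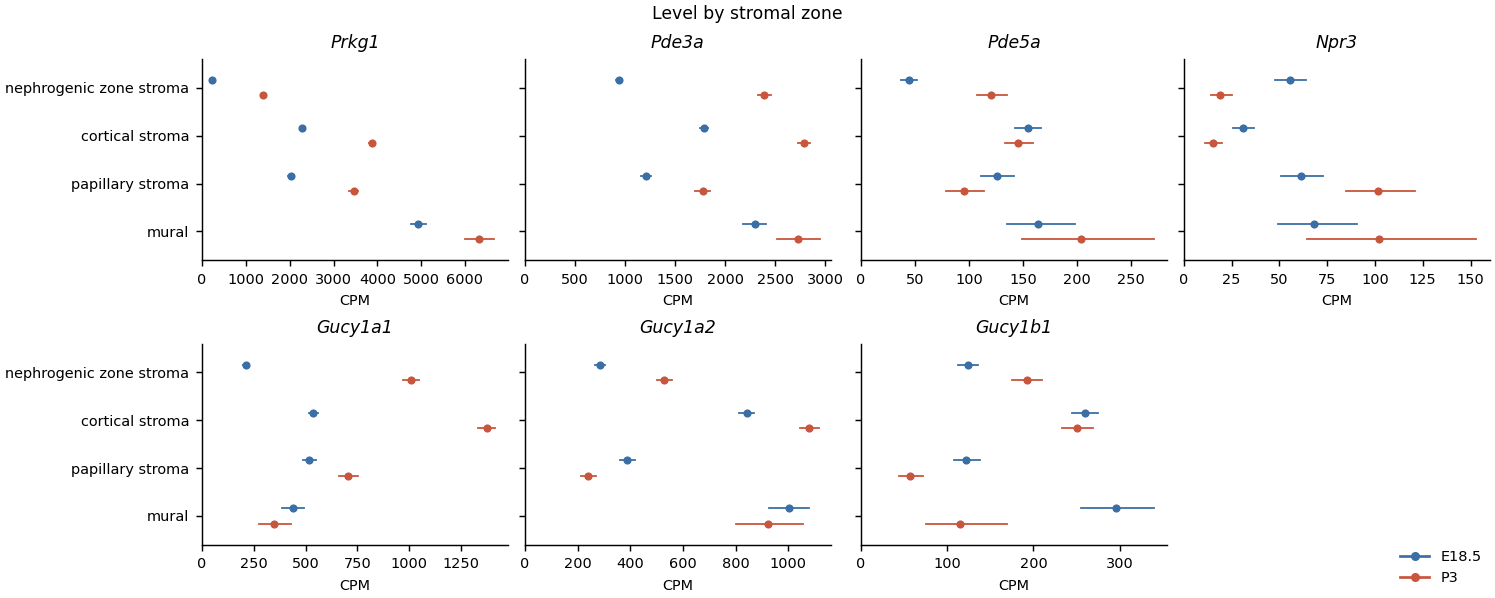
Level of Prkg1, Pde3a, Pde5a, Npr3 and the Gucy1 subunits (CPM, axes from 0) in 4 stromal zones at E18.5 and P3, with 95% counting intervals as bars. Stroma-like nuclei without a zone are not drawn. Prkg1 was lowest in the nephrogenic zone (227 and 1402 CPM) and highest in mural-like nuclei (4929 and 6317 CPM).

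The mural-like nuclei were of several kinds. At E18.5, 182 of the 214 formed a sub-cluster led by Serpini1, Dkk2 and Stac, in which all 6 pericyte markers were raised and Prkg1 stood at 5125 CPM. A sub-cluster of 20 nuclei that had Ren1, the renin gene, among its leading genes held 4877 CPM. In the remaining 12 nuclei all 6 smooth muscle markers were raised, with Myh11 and Actg2 leading, and these nuclei held 2160 CPM, 1.54 times [1.23 to 1.92] the other stroma. At P3 the mural-like class consisted of 33 nuclei led by Ren1, with 9233 CPM, and 24 nuclei led by Rbm24 and Actg2, with 2549 CPM, a level close to that of the other stroma (ratio 1.01 [0.892 to 1.15]). The Dkk2- and Serpini1-led nuclei of P3 were few (20) and stayed unnamed, with 6822 CPM. Of the 6 smooth muscle markers, 4 were also raised in the 20 nuclei with Ren1 at E18.5 and 3 in the Ren1-led nuclei of P3. Of the 6 pericyte markers, 2 were raised in the Dkk2- and Serpini1-led nuclei of P3. Nuclei with Ren1, or with Dkk2 and Serpini1, among their leading genes were high in Prkg1 at both ages. Those with all 6 smooth muscle markers raised, called smooth muscle-marked below, were lower. Fewer than 2 of the 6 pericyte markers were raised in them at either age, so their mural name rests on the smooth muscle markers.

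For this reason the mural value of P3 depended on how nuclei were grouped. The ratio of mural-like to other stromal nuclei was 2.57 [2.44 to 2.71], but 1.64 without called doublets, 1.24 with 20 neighbors and 0.631 with Leiden clustering, where 177 nuclei with all 6 smooth muscle markers raised were named mural. The Ren1-led sub-cluster itself was 3.76-fold [3.54 to 3.98] above the other stroma and lay between 3.40-fold and 3.81-fold under these alternatives, the lowest with Leiden clustering, where the Dkk2-led nuclei were merged with it. At E18.5 the mural ratio was 3.93 [3.79 to 4.08] and ran from 3.65 to 4.01 under the alternatives.

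Pde5a encodes the cGMP-specific phosphodiesterase that is the target of sildenafil (chr3:122728947-122859374, plus strand). Its level was modest in the stroma, at 135 CPM [129 to 140] and 158 CPM [152 to 164], and as high or higher in the small urothelium-like cluster, at 198 CPM [149 to 257] from 56 UMIs and 156 CPM [127 to 189] from 102 UMIs. Urothelium-like nuclei exceeded the stroma 1.47-fold [1.10 to 1.91] at E18.5, and the 2 classes did not differ beyond counting error at P3 (stroma over urothelium 1.01 [0.830 to 1.25]). Stroma was 2.86-fold [2.71 to 3.01] above all other nuclei at P3. Endothelium-like nuclei held 18.9 and 25.7 CPM. Thinned shares were 11.7% and 13.0% in the stroma and 17.9% and 18.3% in the urothelium, against 1.38% and 2.26% in the endothelium.

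Pde5a set mural-like nuclei apart less than Prkg1 did, at 1.23 [1.01 to 1.49] and 1.30 times [0.947 to 1.74] the other stroma. Stroma-like nuclei without a zone held 172 CPM [161 to 182] at E18.5 and 182 CPM [173 to 192] at P3. At E18.5 the nephrogenic zone was low with 44.2 CPM [37.4 to 51.8], and papillary, cortical and mural-like nuclei held 126, 155 and 164 CPM. The cortical and mural-like levels did not differ beyond counting error (ratio 1.06 [0.859 to 1.30]). At P3 the nephrogenic zone was at 121 CPM and papillary stroma was lowest of the named zones at 95.3 CPM. Mural-like nuclei were highest of them at 204 CPM [149 to 272], 1.40 times [1.01 to 1.89] the cortical stroma. High values were found in small sub-clusters, of which the smooth muscle-marked nuclei are part of the mural-like class. The smooth muscle-marked nuclei reached 474 CPM at E18.5 from 18 UMIs (3.54-fold [2.09 to 5.60] above other stroma) and 376 CPM at P3 (2.40-fold [1.69 to 3.32]). A papillary sub-cluster of 71 nuclei led by Ranbp3l held 303 CPM at E18.5 (2.29-fold [1.81 to 2.86]), and an unnamed sub-cluster led by Sntg1 and Ebf2 held 322 CPM at P3. The Ren1-led nuclei of P3, which had the highest Prkg1 level, were at 70.7 CPM of Pde5a.

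Pde3a encodes a phosphodiesterase that hydrolyzes cAMP and is inhibited by cGMP (chr6:141249269-141507448, plus strand). In the stroma it stood at 1298 CPM [1280 to 1315] and 2087 CPM [2064 to 2110], 4.34-fold [4.25 to 4.42] and 5.42-fold [5.33 to 5.52] above all other nuclei, and 7.06-fold and 10.9-fold without called doublets. Podocyte-like nuclei held 587 and 632 CPM, and the 19 neuron-like nuclei of E18.5 held 999 CPM. Endothelium-like nuclei held 129 and 228 CPM, and ureteric and proximal tubule-like nuclei were lowest at each age (60.9 and 79.7 CPM). Thinned shares were 63.9% and 78.7% in the stroma and 5.70% and 7.72% in the proximal tubule.

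Across zones Pde3a was more even than Prkg1. At E18.5 the nephrogenic zone held 938 CPM, papillary stroma 1209, cortical stroma 1785 and mural-like nuclei 2292 CPM, a mural ratio of 1.82 [1.73 to 1.92] to the other stroma. At P3 cortical stroma (2783 CPM) and mural-like nuclei (2724 CPM) did not differ beyond counting error (ratio 1.02 [0.941 to 1.11]), the nephrogenic zone followed at 2391 CPM and papillary stroma was lowest at 1775 CPM. The highest sub-cluster at P3 was that of 20 Dkk2- and Serpini1-led nuclei, with 6041 CPM. It stayed unnamed and is not part of the mural-like value of P3. At E18.5, by contrast, the sub-cluster led by Serpini1 and Dkk2 gave 182 of the 214 mural-like nuclei. The mural-like levels of the ages are therefore of unlike nuclei.

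The natriuretic receptors had different positions in the stroma. By CPM, Npr3 was highest of the named zones in mural-like and papillary nuclei at both ages. At E18.5 they held 67.9 and 61.1 CPM, and the nephrogenic zone (55.4 CPM) was within counting error of them. At P3 each held 102 CPM, but the mural-like UMIs lay in 8 of 57 nuclei. Thinned shares at P3 were 9.94% in papillary, 1.75% in mural-like and 1.57% in nephrogenic zone-like nuclei. At P3 the papillary level was 5.37 times [3.82 to 7.66] that of the nephrogenic zone. All 23 Npr3 UMIs of the P3 mural-like nuclei lay in the 24 smooth muscle-marked nuclei (234 CPM, 7.52-fold [4.72 to 11.4] above other stroma), and all 9 Npr1 UMIs lay in the 33 Ren1-led nuclei (70.7 CPM, 6.65-fold [2.99 to 12.9]). Since other groupings named other nuclei mural, the mural ratio of Npr1 at P3, 3.73 [1.67 to 7.25], fell below 1 under 3 alternatives (0.529 to 0.953).

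Within the endothelium, a sub-cluster in which all 6 arterial markers were raised had 48 nuclei at E18.5 and 51 at P3. It held Pde3a at 932 and 959 CPM, against 93.5 and 178 CPM in the other endothelium-like nuclei, ratios of 9.97 [8.05 to 12.3] and 5.39 [4.54 to 6.39]. Nos3 was also higher there, at 135 against 69.4 CPM and at 184 against 88.2 CPM (ratios 1.95 [1.15 to 3.11] and 2.08 [1.43 to 2.96]). Npr1 went the other way, at 49.8 against 95.7 CPM and at 61.2 against 120.0 CPM, ratios of 0.520 [0.207 to 1.09] and 0.510 [0.261 to 0.903], of which the E18.5 value was within counting error. Low Npr1 was not particular to the arterial nuclei. In the Prdm1-led sub-clusters it was 0.617 [0.433 to 0.860] and 0.614 times [0.395 to 0.916] the other endothelium. In 38 nuclei led by Khdrbs2 at E18.5 it was 0.379 times [0.103 to 0.981], from 4 UMIs. The highest Npr1 level of the E18.5 endothelium, 301 CPM from 17 UMIs, was in 18 nuclei led by Gm32647 (3.34-fold [1.92 to 5.44] above the other endothelium). The P3 sub-cluster with the same leading gene had 29 nuclei and 162 CPM, which did not differ from the other endothelium beyond counting error (1.41 [0.812 to 2.29]). Nor was high Nos3 particular to the arterial nuclei. At P3 the Gm32647-led nuclei held 180.5 CPM of Nos3 (1.98 [1.17 to 3.15]) and 7 nuclei led by Agmo 412 CPM from 10 UMIs. At E18.5 the Gm32647-led ratio of Nos3, 1.48 [0.539 to 3.28], was within counting error. Pde3a was also raised in the Gm32647-led nuclei, at 283 and 351.5 CPM (2.25 [1.27 to 3.69] and 1.57 [1.10 to 2.19]), below its arterial level. Thinned nuclei with Nos3 held Npr1 about as often as independence gives, in 6 of 65 nuclei at E18.5 and 9 of 58 at P3 (ratios 0.903 [0.331 to 1.97] and 1.31 [0.601 to 2.49]).

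**Figure D4:**
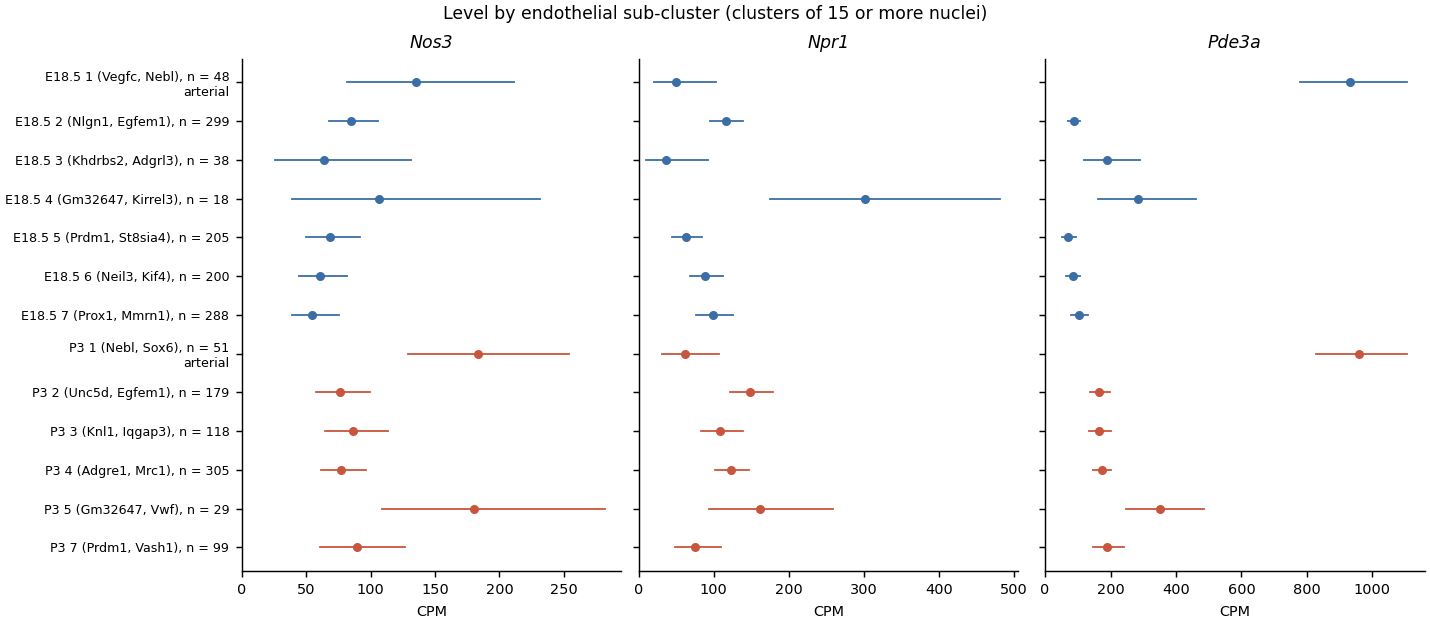
Levels of Nos3, Npr1 and Pde3a (CPM) in the endothelial sub-clusters of 15 or more nuclei at E18.5 and P3, with 95% counting intervals as bars. The arterial sub-clusters held 932 and 959 CPM of Pde3a and low values of Npr1 (49.8 and 61.2 CPM).

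Between the ages, Prkg1 was 1.80-fold [1.77 to 1.82] higher in the stroma at P3, Pde3a 1.61-fold [1.58 to 1.64] and Pde5a 1.17-fold [1.10 to 1.24], while Npr3 stood at 0.669 [0.597 to 0.749] of its E18.5 level and Npr1 at 0.963 [0.779 to 1.19]. None of the 7 members passed 2-fold in the stroma in either direction, where 2.73% of 15320 genes were at least 2-fold higher and 13.2% at least 2-fold lower. Among the cyclase subunits, Gucy1a1 was 2.11-fold higher, Gucy1a2 1.10-fold higher and Gucy1b1 at 0.846. The ratio of Prkg1 was not particular to the stroma, as it was 1.73 in podocyte-like, 1.59 in endothelium-like, 2.18 in proximal tubule-like and 2.41 in ureteric epithelium-like nuclei, classes with a lower level. In early nephron-like nuclei, a class made of unlike clusters at the ages, it was 1.06 [0.934 to 1.20].

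The nephrogenic zone differed most between the ages. Prkg1 was 6.19-fold [5.72 to 6.69] higher at P3, Pde5a 2.73-fold [2.25 to 3.34] and Pde3a 2.55-fold [2.44 to 2.66], and Npr3 stood at 0.342 [0.244 to 0.471]. These were 3 of the 5 members tested above 2-fold and 1 below, where 4.24% of 11017 genes were at least 2-fold higher and 12.1% at least 2-fold lower. In cortical stroma the ratios were 1.69 for Prkg1, 1.56 for Pde3a, 0.943 [0.836 to 1.06] for Pde5a and 0.488 for Npr3, and in papillary stroma 1.71, 1.47, 0.756 [0.603 to 0.943] and 1.67 [1.29 to 2.15]. Npr3 was thus higher at P3 in the papillary class and lower in the nephrogenic zone and cortical stroma. Mural-like nuclei, of unlike kinds at the ages, held 67.9 and 102 CPM of Npr3. The papillary class was not alike at the ages either. At E18.5, 429 of its 500 nuclei formed a sub-cluster with Nrxn3, Lrfn5 and Corin among its leading genes. A P3 sub-cluster of 396 nuclei with these leading genes stayed unnamed, and its part in the papillary ratios was not tested. The markers that named the nephrogenic zone differed as well. Foxd1 stood at 84.0 CPM in it at E18.5 and 16.6 CPM at P3, Ntn1 at 919 and 244 CPM and Dlk1 at 52.5 and 11.8 CPM, whereas Fibin (46.2 and 58.4 CPM) and Rspo3 (251 and 301 CPM) were no lower. The part of this shift in the ratios of the members was not tested.

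**Figure D5:**
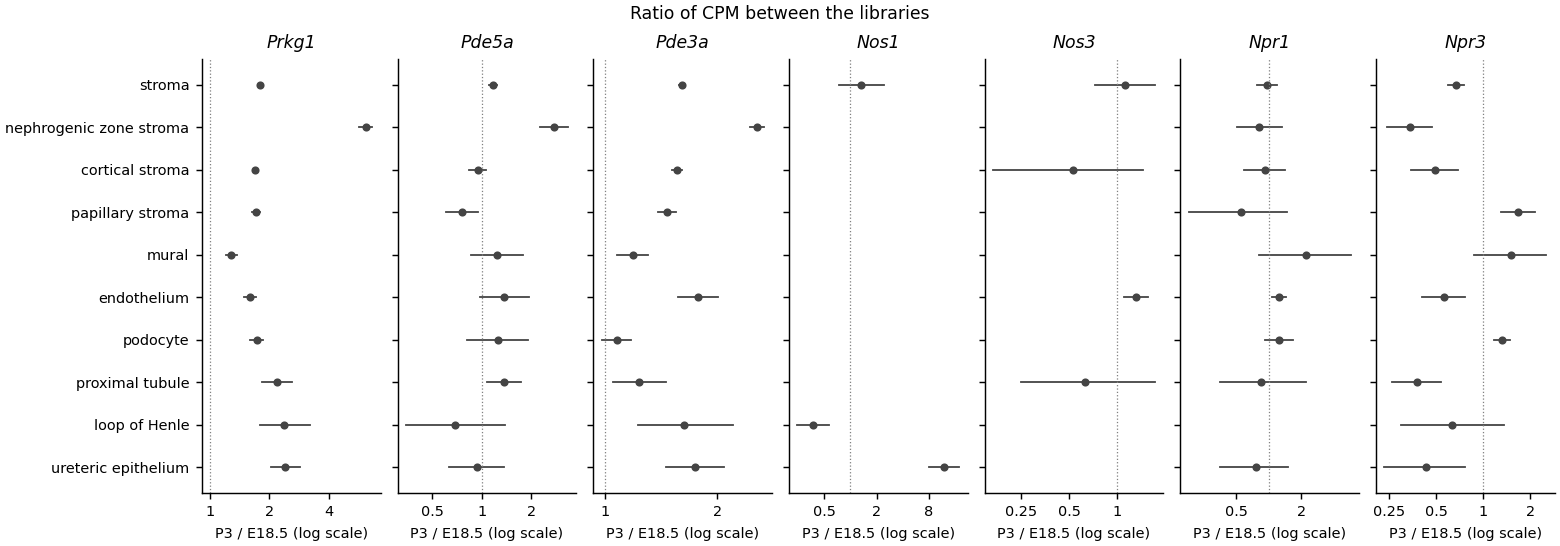
Ratio of the P3 to the E18.5 level of the members by class and zone (log axis), with 95% counting intervals as bars. Prkg1 lies above 1 in each stromal zone and reaches 6.19 in the nephrogenic zone, and Nos1 reaches 11.8 in the ureteric epithelium.

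In the endothelium Nos3 was 1.31-fold [1.10 to 1.56], Npr1 1.24-fold [1.06 to 1.45] and Pde3a 1.77-fold [1.57 to 2.01] higher at P3, and Npr3 stood at 0.560 [0.407 to 0.764]. None of the 6 members tested passed 2-fold, where 2.54% of genes were higher and 11.7% lower by that much. In podocyte-like nuclei Npr3 was 1.32-fold [1.16 to 1.48] higher at P3, in contrast to its ratio of 0.563 over all nuclei, and Npr1 was at 1.25 [0.914 to 1.69]. The ratio of Nos1 was 11.8 [8.02 to 17.9] in the ureteric epithelium and 0.376 [0.245 to 0.572] in the loop of Henle. The loop of Henle class was a single cluster at E18.5, and at P3 it also held 65 nuclei led by Casr. A P3 cluster of 272 nuclei, with 7 of 7 loop of Henle and 6 of 7 early nephron markers raised, stayed unnamed. It held 50 Nos1 UMIs, and its part in the loop of Henle ratio was not tested. The ratio of Npr3 in early nephron-like nuclei was 0.16 [0.0795 to 0.290], where the class lacked the Nrcam-led nuclei at P3. The part of this in the ratio was not tested. In the ureteric epithelium 2 of 5 members tested (Prkg1 and Nos1) were at least 2-fold higher, against 2.87% of genes, and Npr3 was at least 2-fold lower, against 12.3% of genes.

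Detection of the kinase and the cyclase in the same nucleus was examined in stroma-like nuclei thinned to 1000 UMIs. At E18.5, of 1653 nuclei with Gucy1a1, 55.4% held Prkg1, of 1679 with Gucy1a2 61.6% and of 760 with Gucy1b1 58.3%, where 50.2% of all stroma-like nuclei did. The numbers of nuclei with both were 1.10 [1.03 to 1.18], 1.23 [1.15 to 1.30] and 1.16 [1.05 to 1.27] times those of independence. Counted within sub-clusters, the ratios were 1.0, 1.07 [1.0 to 1.14] and 1.04 [0.949 to 1.15], so that most of the excess lay between sub-clusters and not within them. At P3 the ratios were 1.01, 1.09 [1.02 to 1.17] and 0.996 [0.886 to 1.11]. Pde5a was found with Gucy1b1 at 1.14 [0.932 to 1.39] and 1.02 [0.775 to 1.33] times independence, and with Prkg1 at 1.10 [0.988 to 1.23] and 0.953 [0.844 to 1.07].

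A list of 44 genes of the cGMP pathway was chosen with earlier results of these data known, so counts of it are descriptions. Of these genes, 38 had enough UMIs for a comparison at E18.5 and 37 at P3. In stroma against all other nuclei, 8 and 9 of them were at least 2-fold higher, where 6.01% and 8.13% of all genes were. They were Gucy1a1, Gucy1a2, Gucy1b1, the C-type natriuretic peptide receptor Npr2, Prkg1, Pde5a, Pde3a and the kinase substrate Mrvi1 at both ages, joined at P3 by Pde11a. Another 10 and 9 were at least 2-fold lower, against 14.3% and 20% of all genes. In the endothelium 6 and 7 were higher, against 7.09% and 8.01% of genes (Nos2, Nos3, Cav1, Npr1, Pde2a and Pln at both ages and Rgs2 at P3), and 16 were lower at each age, against 21.7% and 26.4%. Nos3 and Npr1 were thus higher in a different class from Npr2, Gucy1a1, Gucy1a2, Gucy1b1, Prkg1 and Pde5a, while Nos1 was higher in neither. The median log2 ratio of the list was -0.16 and -0.14 in the stroma, beside -0.12 and -0.19 over all genes. In the endothelium it was -0.58 and -0.66, beside -0.15 and -0.21 over all genes.

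Across clusters, the genes outside these lists whose level followed each member most closely were found by Pearson correlation of log2(CPM + 10), over 25 clusters at E18.5 and 33 at P3. Clusters of a library share its depth and free RNA, and the correlations are descriptions. Prkg1 was followed most closely by Rerg (r = 0.901), Vstm4 and Carmn at E18.5 and by Msrb3 (r = 0.95), Cacna1c and Eml1 at P3. Pde3a was followed by Pakap (r = 0.910), Rerg and Vstm4 and then by Cacna1c (r = 0.919), Msrb3 and Lbh, and its correlation with Prkg1 itself was 0.905 and 0.948. The gene closest to Pde5a was 4930447N08Rik at both ages (r = 0.935 and 0.895), while Pde5a and Prkg1 correlated at 0.672 and 0.507. Closest to Nos3 were Exoc3l2 (r = 0.971), Ccm2l and Ushbp1 and then Arhgef15 (r = 0.969), Nova2 and Dipk2b. Nos1 was closest to Tex50 (r = 0.863) at E18.5 and to Sbspon (r = 0.832) at P3, with no gene shared among the first 3. Ephb1 was among the first 3 for Npr1 at both ages (r = 0.857 and 0.881), and Npr3 was closest to Mmp23 (r = 0.840) and to Aplp1 (r = 0.913).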

How the data were processed

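Whole kidneys were profiled by 10x single-nucleus RNA sequencing with a single library for each of E18.5 and P3, and 77321253 and 70055219 UMIs in the nuclei kept. The deposited matrices hold raw counts, that is UMIs per gene and nucleus, which the authors made with Cell Ranger on mm10 and from which they removed empty droplets. The file headers name release 7.0.0 for E18.5 and 5.0.1 for P3, whereas the submitters' processing notes name 5.0.1 alone.

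Nuclei beyond 3 median absolute deviations for UMIs, genes or mitochondrial share (with a margin of 0.5 percentage points) were removed, which left 21270 of 21600 and 11765 of 12216. Each library was normalized by deconvolution (scran 1.30.0, R 4.3.3) and clustered on its own, with 2000 variable genes other than the cGMP pathway genes, 50 principal components, 10 neighbors and Walktrap (bluster 1.12.0, igraph 2.1.4). The same steps then split the stroma-like and the endothelium-like nuclei into sub-clusters. Doublets were called with scrublet (scanpy 1.11.5), with 3521 and 2049 nuclei called. They were kept, a cluster with over 50% of them stayed unnamed, and their removal was an alternative. A name needed at least 3 raised markers, each at a level at least 2-fold above all others after adding 10 CPM. The naming rules were set after the clusters had been seen.

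Levels are summed UMIs as CPM with exact Poisson intervals, and ratios of levels have exact conditional binomial intervals (scipy 1.17.1). Co-detection ratios have the exact Poisson interval of the observed number of nuclei, divided by the number expected. All these intervals cover counting error only. With 1 library per age no p-value was computed. Shares of nuclei were counted after thinning each nucleus to 1000 UMIs, and shallower nuclei were left out. The background counts genes with at least 50 UMIs that passed 2-fold. The interval code was tested on simulated independent Poisson counts. These hold no grouping of UMIs within nuclei, so the test checks the code and not the intervals for these data. The genes named are the members, the cyclase subunits, a cGMP pathway list, the marker genes and, per member and library, the 3 genes most like it among those with at least 100 UMIs. Genes that lead clusters are also named, and those outside these lists were chosen after their values were seen. The members and lists were chosen with earlier results of these data known. Gene positions are those of GENCODE M21 and promoter sequences those of RefSeq (both GRCm38), in which 5 of the 7 members had a window. Alternatives were Leiden clustering, removal of called doublets, 20 neighbors, means of size-factor scaled counts, thinning to 2000 UMIs, and expected co-detection summed within sub-clusters.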

Additional observations from a re-analysis of the deposited data

Results flagged for a closer look

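For the pairs of values below, the ratio lay above 1 at one age and below 1 at the other with intervals that did not include 1. The difference between the ages was not tested, since each age has 1 library.

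Pde3a in podocyte-like nuclei was 1.15 times [1.09 to 1.21] the level of all other nuclei at E18.5 and 0.834 times [0.773 to 0.898] at P3. Its level in the podocyte-like nuclei was 587 and 632 CPM, and the level in the stroma, which is part of the comparison group, was 1298 and 2087 CPM. Npr3 in stroma-like nuclei was 0.912 times [0.843 to 0.985] all other nuclei at E18.5 and 1.14 times [1.02 to 1.26] at P3.

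Within the stroma, Pde3a in the nephrogenic zone was 0.673 times [0.649 to 0.699] the other stromal nuclei at E18.5 and 1.18 times [1.15 to 1.21] at P3. Npr3 in the nephrogenic zone went the other way, at 1.19 [1.01 to 1.40] and 0.541 [0.393 to 0.730].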

How the results depend on the processing

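Of 218 values recomputed for 61 results under other settings, 168 stayed within the counting interval of the value reported, 46 fell outside it and 4 lay on the other side of 1 from a ratio whose interval had excluded 1. Counting also ratios whose interval held 1, 21 values crossed it. Of the 46, 10 concerned single genes in other classes or zones, and these were lower than reported. No paired analysis was possible because each age has 1 library. With Leiden clustering, the mural ratio to other stroma at P3 was 0.631 for Prkg1 and 0.529 for Npr1, and that of Npr1 was 0.947 without called doublets and 0.953 with 20 neighbors. The mural class then held other nuclei, as described above.

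Without called doublets, the ratios to all other nuclei at E18.5 and P3 were 5.33 and 7.07 for Prkg1 and 7.06 and 10.9 for Pde3a in the stroma, 22.0 and 53.3 for Nos3 in the endothelium and 7.42 and 20.3 for Npr3 in podocytes. At P3 alone, they moved to 3.40 for Pde5a in the stroma, 8.28 for Nos1 in the ureteric epithelium and 14.7 for Npr1 in the endothelium. Mural ratios without doublets were 3.71 and 1.64 for Prkg1 and, at P3, 0.845 for Pde5a, the cortical ratio of Pde3a at P3 was 1.32, and the P3 over E18.5 ratios in the stroma were 1.83 for Prkg1 and 1.64 for Pde3a.

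With 20 neighbors, Prkg1 in the stroma and Npr3 in podocytes at E18.5 gave 3.66 and 7.72. At P3 the mural ratios were 1.24 for Prkg1 and 0.941 for Pde5a, the cortical ratio of Pde3a was 1.37 and its age ratio in the stroma 1.64. With Leiden clustering, the mural ratio of Prkg1 at E18.5 was 3.65, the cortical ratio of Pde3a at P3 was 1.37 and the age ratios in the stroma were 1.76 for Prkg1 and 1.58 for Pde3a.

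As means of size-factor scaled counts, the stromal ratios were 4.34 and 4.55 for Prkg1, 5.05 and 5.97 for Pde3a and, at P3, 3.20 for Pde5a. The cortical ratio of Pde3a at P3 was 1.37, and the age ratios in the stroma were 1.83 for Prkg1 and 1.66 for Pde3a. Size factors are centered within a library, so for the age ratios these means were divided by the mean UMIs per nucleus of the library (3635.2 and 5954.5), a step chosen after seeing the data. Without it the age ratios in the stroma were 3.01 for Prkg1, 1.93 for Pde5a and 2.72 for Pde3a, and those in the endothelium 2.28 for Nos3 and 2.08 for Npr1. Counted within sub-clusters, co-detection of Prkg1 and Gucy1b1 at E18.5 was 1.04. Where a cause of these moves is not given here, the cause was not tested. Leiden clustering named no urothelium or loop of Henle class at E18.5, so that 2 values could not be computed.

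A single library per age means that the intervals hold no biological spread. Depth limits the sparse genes most, Nos1, Nos3 and Npr1 above all, and 0 UMIs in a class do not show that the transcript is absent.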

Other observations

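Other genes of the pathway list had class patterns of their own. Pde2a, a phosphodiesterase stimulated by cGMP, stood at 137 and 253 CPM in endothelium-like nuclei, 12.6-fold [11.2 to 14.1] and 16.2-fold [14.8 to 17.8] above all other nuclei at E18.5 and P3. Mrvi1, whose protein is a substrate of the type I kinase, stood at 188 and 296 CPM in the stroma, 6.30-fold [5.95 to 6.68] and 6.40-fold [6.09 to 6.72] above the other nuclei. Npr2, the receptor for C-type natriuretic peptide, was lower at 14.7 and 21.9 CPM in the stroma.

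Pde1a, a calmodulin-regulated phosphodiesterase, had its leading level in ureteric epithelium-like nuclei at 227 and 680 CPM. Pde10a stood at 1009.9 CPM from 2306 UMIs in podocyte-like nuclei at E18.5, against 168 CPM in the endothelium. At P3 the podocyte-like nuclei held 173 CPM from 194 UMIs and the endothelium 151 CPM from 457 UMIs, and the order of these close values was not examined further. Nos2, the inducible NO synthase, was sparse with 92 and 88 UMIs in all, and its leading class was the endothelium at 8.98 and 12.5 CPM.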
